A study of Homo sapiens with 18 samples.

Results

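The genes described here are FOS, FOSB, FOSL1, FOSL2, JUN, JUNB, JUND and ATF3, which encode subunits of the transcription factor AP-1 and a related stress-inducible factor. They were taken by symbol from a table of read counts for 26485 genes, and each of the 8 passed the filter on low counts that left 12832 genes for testing. The libraries came from SW620 cells, a human colon cancer line, in an RNAseq experiment that asked how the protease Lonp1 bears on the heat shock response. All cells received a siRNA, either a scramble sequence or siLonp1, which targets the mRNA of LONP1. In each arm Ctrl cells stayed at 37 °C throughout, HS cells spent 1 h at 42 °C, and HS+REC cells had that heat followed by 1 h back at 37 °C. The 6 groups have 3 libraries each.

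AP-1 is a dimer of basic leucine zipper proteins. Jun proteins can pair with each other or with Fos proteins, whereas Fos proteins need a Jun partner to bind DNA, and the dimers recognise the TPA response element (TRE) and, with lower preference or with ATF partners, the cAMP response element (CRE). FOS, FOSB, JUN and JUNB are classical immediate early genes, whose transcription starts within minutes of a growth factor or stress signal and whose mRNAs are short-lived. FOSL1 (Fra-1) and FOSL2 (Fra-2) usually follow later and are often maintained in carcinoma cells, and JUND is transcribed steadily in many tissues. ATF3 is induced by many stresses, including those that act through the integrated stress response. The RNA of these genes was measured, not the proteins, and AP-1 activity also depends on phosphorylation and dimer choice.

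LONP1 itself was lower with siLonp1 in every condition, with log2 changes of -3.43 in Ctrl, -4.19 after HS and -3.01 after HS+REC (adjusted p at most 2.0e-18 by edgeR). The remaining level differed between conditions, at 20.4 CPM in Ctrl, 11.7 CPM after HS and 27.2 CPM after HS+REC. LONP1 shares exonic bases with RPL36 on the opposite strand, and the strand setting of the counting is not given in the sources used here. Some of the remaining counts could thus belong to RPL36, and how complete the silencing was in each condition cannot be told. The part of the differing LONP1 level in the results below was not tested. Library totals ran from 30815860 to 47279297 counts, and the library with the lowest total was HS scramble replicate 3. The 7 epithelial markers used to check the cell line were all above the filter and summed to 8324 to 11688 CPM in a library. CPM are counts per 1000000 counts of the library, and the scaling factors of edgeR were applied for single genes and not for these sums. Of 10 markers of blood, vessel, muscle and stromal cells, 3 were above the filter, none was at 0 in all libraries, and their sum was 11.2 to 13.5 CPM in Ctrl, 15.8 to 23.0 CPM after HS and 31.9 to 36.0 CPM after HS+REC. COL1A1, a collagen gene, had the highest level, with group means of 9.21 to 33.4 CPM. The part of these other markers in the results was not tested either. In RNA from whole cultures, fewer cells that express a gene and less RNA per cell cannot be told apart. The methods name 3 independent biological replicates, and the siRNA sequence used for RNAseq is not given in the sources used here.

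Promoter windows from RefSeq (GRCh38.p14) were matched for 7 of the 8 genes, all but FOSL1. The 150 bases before the annotated start are shown for the 4 immediate early genes and for the upstream start of ATF3, since these are the genes whose response to heat is described most closely. Each is printed on the strand of the gene, and capitals mark the searched motifs. A second ATF3 window, farther downstream at chr1:212614768-212615067, is not printed, and which start these cells used was not measured.
FOS, chr14:75278678-75278827, plus strand: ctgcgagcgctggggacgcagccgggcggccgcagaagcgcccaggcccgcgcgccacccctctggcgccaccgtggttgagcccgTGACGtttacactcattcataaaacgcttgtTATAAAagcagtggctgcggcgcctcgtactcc
FOSB, chr19:45467846-45467995, plus strand: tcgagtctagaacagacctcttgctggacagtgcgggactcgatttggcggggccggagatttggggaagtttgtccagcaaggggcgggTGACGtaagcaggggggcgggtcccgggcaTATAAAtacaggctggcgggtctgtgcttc
JUNB, chr19:12791336-12791485, plus strand: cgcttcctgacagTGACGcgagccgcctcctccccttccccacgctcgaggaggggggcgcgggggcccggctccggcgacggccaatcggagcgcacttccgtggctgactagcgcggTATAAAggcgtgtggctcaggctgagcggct
JUN, chr1:58784048-58784197, minus strand: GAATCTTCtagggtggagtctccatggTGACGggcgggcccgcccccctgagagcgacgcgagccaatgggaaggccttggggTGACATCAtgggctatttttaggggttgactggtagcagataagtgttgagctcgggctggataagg
ATF3, chr1:212565257-212565406, plus strand: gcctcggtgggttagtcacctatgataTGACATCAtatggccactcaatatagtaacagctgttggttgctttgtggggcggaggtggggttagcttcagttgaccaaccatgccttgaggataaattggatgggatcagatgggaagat

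Windows of 300 bases, from 250 before to 50 after each start, were searched on both strands for TGACG (the core shared by CRE sites), TGACGTCA (the full CRE), TGACATCA (a CRE-like site), TGACTCA or TGAGTCA (the TRE), GAANNTTC (a unit of the heat shock element), TGATGNAAT (the CARE of ATF4 and CHOP), TATAAA and the CArG box of serum response factor. TGACG is part of the full CRE, so these matches overlap. FOS and FOSB were laid out alike, with TGACG at -64 to -60 and at -60 to -56, and TATAAA at -33 to -28 and at -30 to -25. JUNB held TATAAA at -31 to -26, with TGACG farther off at -137 to -133. JUN had no TATAAA and carried TGACATCA at -67 to -60, TGACG at -123 to -119 and GAANNTTC at -150 to -143. JUND held the full CRE at -200 to -193 and TGACG also at -86 to -82. FOSL2 held TGACG at -201 to -197 and at -66 to -62, and a TRE just after its start at 5 to 11. The upstream window of ATF3 held TGACATCA at -123 to -116, and its downstream window TATAAA at -230 to -225. Among 35116 windows of this length, TGACG was in 24.6%, TATAAA in 11.5%, GAANNTTC in 6.77%, the TRE in 4.95%, TGACATCA in 2.61%, the full CRE in 1.85%, the CArG box in 1.29% and the CARE in 0.991%. These are matches of letters, and no binding was measured.

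In the GENCODE 44 annotation of hg38, JUN, JUNB and JUND are single-exon genes, and FOS, FOSB, FOSL1, FOSL2 and ATF3 each have 4 exons in the selected transcript. The 3′ untranslated region of FOS holds ATTTA, the core of AU-rich elements that mark short-lived mRNAs, 5 times in 806 nt, or 6.2 per kilobase, and 5.43% of 18780 annotated 3′ regions had at least that density. JUNB followed with 4.0 per kilobase, a density reached by 15.7% of the regions, and the other 6 genes had 1.19 to 2.46 per kilobase around the median of 1.55. The longer element TTATTTATT occurred in FOS and FOSL2 alone among the 8, against 8.6% of all regions. That share is over regions of all lengths, and the region of FOSL2 has 4869 nt. The sites are shown with the element in capitals.
FOS, chr14:75282060-75282089, plus strand: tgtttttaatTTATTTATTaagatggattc
FOSL2, chr2:28416355-28416384, plus strand: atttattttaTTATTTATTttaaatgttta
JUNB shares exonic bases with HOOK2 on the opposite strand, and the strand setting of the counting is not given in the sources used here, so JUNB reads could in part belong to HOOK2. HOOK2 averaged 12.04 to 17.04 CPM in the groups, and its log2 changes between groups ran from -0.40 (siLonp1 after HS+REC) to 0.32 (HS+REC in scramble cells).

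Per kilobase of exon, FOSL1 was the most abundant of the 8 in every group. In Ctrl scramble it stood at 148.2 ± 8.09 CPM per kb (SD, n = 3) and made up 66.3% of the summed level of the 8 genes. JUND (28.5 CPM per kb) and JUN (24.5) came next with overlapping libraries, followed by JUNB (11.3), FOSL2 (6.48) and FOSB (1.95), and the lowest were ATF3 (1.41) and FOS (1.28), whose libraries overlapped too. Unheated scramble cells thus carried mostly FOSL1 mRNA among the 8 genes. In Ctrl siLonp1 ATF3 was last at 1.18 CPM per kb, below FOS at 1.67 with no overlap. After HS in scramble cells FOS was in the second place, with 83.4 CPM per kb and 24.3% of the sum, while FOSL1 had 127.0 CPM per kb and 37.0%. After HS+REC the share of FOS was 3.31%, and JUN, at 34.9 CPM per kb, stood behind FOSL1 at 87.6, with JUND overlapping JUN. In siLonp1 cells FOSL1 held 69.4% of the sum in Ctrl, 48.5% after HS and 57.5% after HS+REC. Dividing by the length of the longest transcript kept FOSL1 at the top in all groups. It brought FOS closer to FOSL1 after HS in scramble cells, at 126.3 against 140.8 CPM per kb, so their shares depend on the length used. The order of low genes changed after HS in scramble cells and after HS+REC in both arms.

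**Figure D1:**
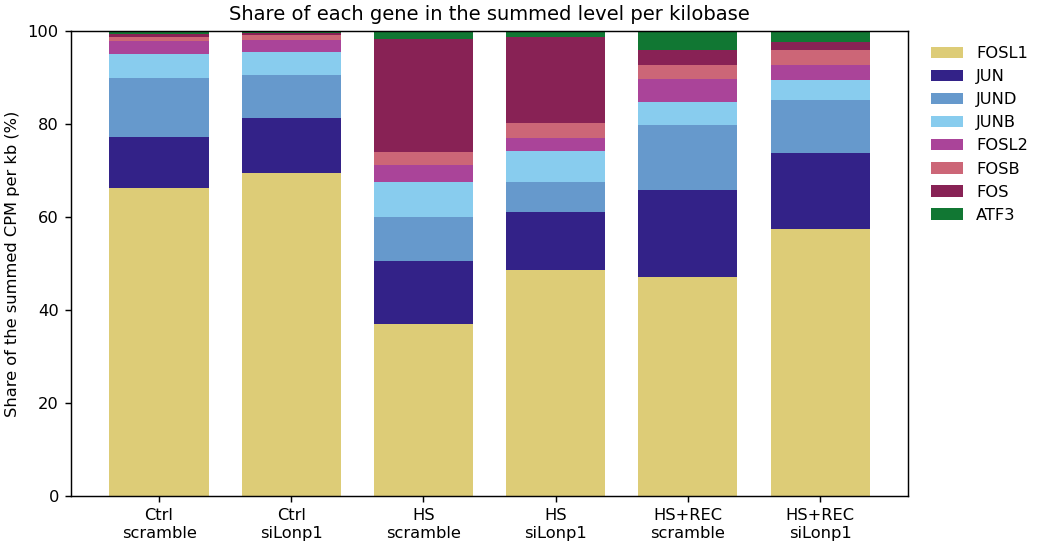
Stacked bars show the share of each gene in the summed CPM per kilobase of the 8 genes (vertical axis, percent) for the mean of the 3 libraries in each of the 6 groups (horizontal axis). FOSL1 is the largest segment in all groups, from 37.0% in HS scramble to 69.4% in Ctrl siLonp1, and FOS takes 24.3% and 18.5% after HS in the scramble and siLonp1 arms.

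Heat shock raised FOS the most. Its level was 4.26, 3.85 and 4.08 CPM in the Ctrl scramble libraries and 260.8, 276.5 and 260.1 CPM after HS, and in siLonp1 cells 5.85, 4.99 and 5.08 CPM in Ctrl and 304.8, 331.8 and 321.0 CPM after HS. Every heated library was far above every unheated one. The change was 65.5-fold in scramble cells (log2 6.03, SE 0.14, adjusted p = 2.7e-20 by edgeR's quasi-likelihood test with Benjamini-Hochberg adjustment) and 60.1-fold in siLonp1 cells (log2 5.91, SE 0.13, adjusted p = 2.4e-20). In the scramble arm 4 of the 8 genes were called, which required an FDR no higher than 0.05 together with a fold change that exceeded 2, against 3.30% of all genes tested, and in the siLonp1 arm 3 of 8 against 4.57%. By FDR alone 7 of 8 passed in scramble cells and 6 of 8 in siLonp1 cells, against 36.0% and 42.2% of all genes. The median log2 change of the 8 genes in scramble cells was 1.07, and that of all genes tested was -0.01.

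**Figure D2:**
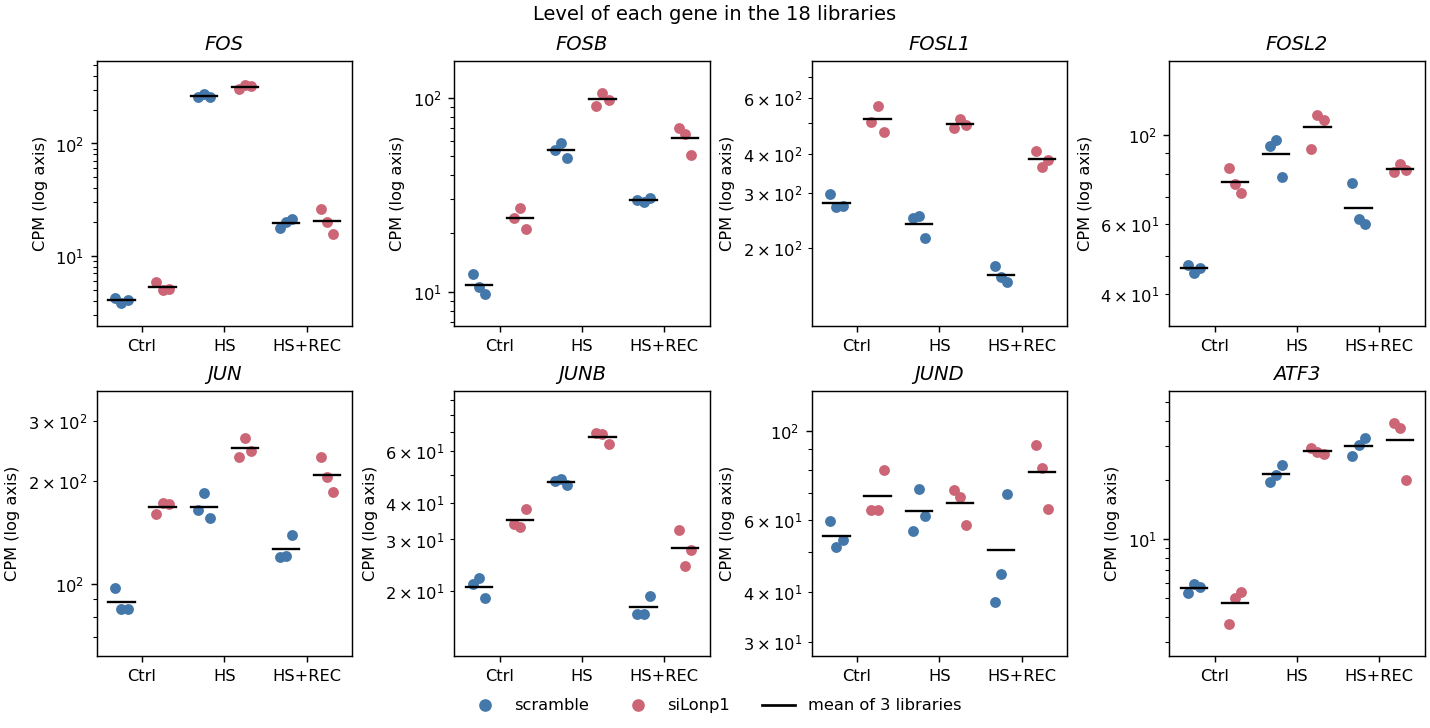
Each panel plots 1 gene, with CPM on a logarithmic vertical axis, a point for each of the 18 libraries grouped by condition on the horizontal axis, blue for scramble and red for siLonp1, and a black line at the mean of 3 libraries. FOS peaks after HS at 260.1 to 331.8 CPM and is at 15.6 to 26.2 CPM after HS+REC, whereas the red points of FOSL1 lie above the blue ones in every condition.

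FOSB, the close relative of FOS, rose less steeply. Scramble libraries went from 12.3, 10.6 and 9.71 CPM in Ctrl to 53.9, 58.8 and 48.9 CPM after HS, and siLonp1 libraries from 24.1, 27.1 and 21.1 CPM to 91.3, 105.7 and 98.1 CPM. The groups did not overlap in either arm, and the log2 changes were 2.31 (SE 0.11, adjusted p = 9.9e-14) and 2.03 (SE 0.11, adjusted p = 3.5e-13). FOSL2 had 47.5, 45.2 and 46.6 CPM in Ctrl scramble and 93.8, 97.2 and 78.6 CPM after HS, a log2 change of 0.95 (SE 0.09, adjusted p = 1.0e-08). In siLonp1 cells FOSL2 started higher, at 82.5, 75.4 and 71.5 CPM, and reached 92.2, 112.5 and 109.0 CPM, a log2 change of 0.45 (SE 0.09, adjusted p = 2.1e-04). FOSL1, by contrast, did not rise with heat. It had 297.2, 269.7 and 272.0 CPM in Ctrl scramble and 250.3, 253.6 and 215.1 CPM after HS, a small decrease of 0.22 on the log2 scale (SE 0.07, adjusted p = 0.0208) that no longer passed without Ctrl scramble replicate 1 or HS scramble replicate 3, with values between -0.26 and -0.13 as each library was left out. In siLonp1 cells the FOSL1 libraries of Ctrl and HS overlapped (log2 -0.05, SE 0.07, adjusted p = 0.644).

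Among the Jun genes, JUNB and JUN rose and JUND did not pass in the model over all libraries. JUNB, which often restrains the activity of JUN, went from 21.1, 22.1 and 18.9 CPM to 47.4, 48.4 and 46.1 CPM in scramble cells, a 2.29-fold change (log2 1.19, SE 0.09, adjusted p = 1.6e-10). In siLonp1 cells it went from 33.8, 33.1 and 38.1 CPM to 69.3, 69.1 and 63.6 CPM (log2 0.94, SE 0.09, adjusted p = 3.6e-09), just under the 2-fold limit, and it passed that limit without Ctrl siLonp1 replicate 3. JUN, the most potent transactivator of the Jun proteins, rose from 96.9, 84.5 and 84.6 CPM to 164.3, 184.5 and 155.6 CPM in scramble cells (log2 0.92, SE 0.08, adjusted p = 6.7e-09) and from 160.2, 172.3 and 171.5 CPM to 236.2, 267.5 and 244.8 CPM in siLonp1 cells (log2 0.57, SE 0.08, adjusted p = 5.8e-06). The heated libraries lay above the unheated ones for both genes and both arms. Without HS scramble replicate 3, the log2 changes of JUN (1.00) and FOSL2 (1.07) in scramble cells were above the 2-fold limit, which made 6 genes called. JUND had 59.7, 51.5 and 53.6 CPM in Ctrl scramble and 56.6, 71.6 and 61.7 CPM after HS, with overlapping libraries (log2 0.20, SE 0.16, adjusted p = 0.342, and 0.046 with the groups of the contrast fitted alone), and its siLonp1 libraries overlapped as well (log2 -0.06, SE 0.16, adjusted p = 0.786).

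ATF3 rose in both arms. Its levels were 5.30, 5.93 and 5.69 CPM in Ctrl scramble and 19.7, 21.4 and 23.9 CPM after HS, a 3.82-fold change (log2 1.93, SE 0.18, adjusted p = 6.1e-09). In siLonp1 cells they were 3.71, 5.04 and 5.42 CPM and 29.3, 28.0 and 27.2 CPM, a 5.95-fold change (log2 2.57, SE 0.18, adjusted p = 4.9e-11). No heated library overlapped an unheated one.

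**Figure D3:**
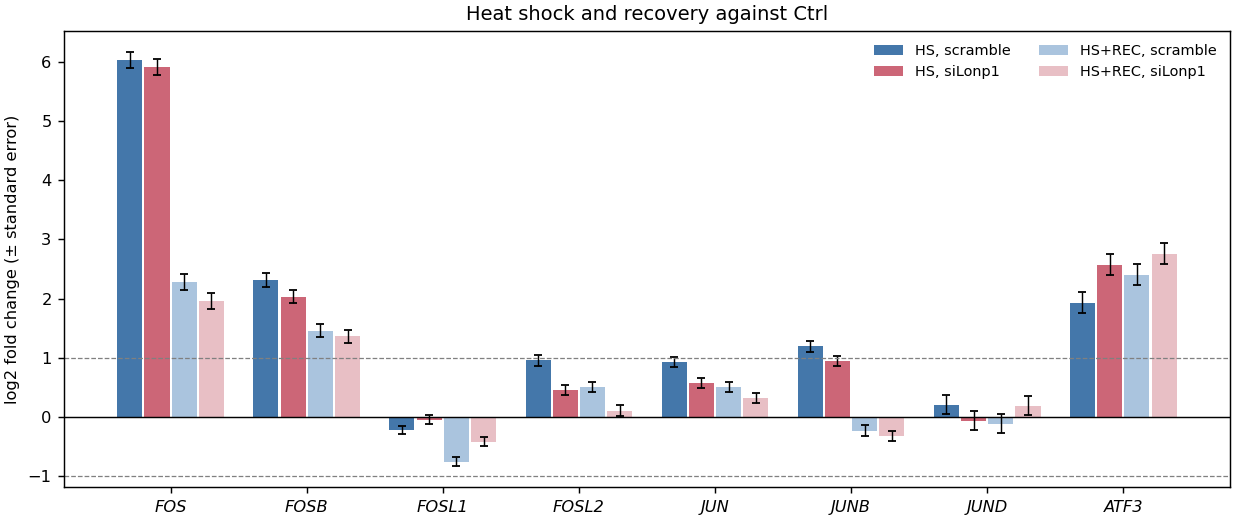
Bars give the log2 fold change against Ctrl (vertical axis) for each gene (horizontal axis) after HS and after HS+REC in the scramble and siLonp1 arms, with the standard error of the fit as error bars and dashed lines at a 2-fold change. FOS stands at 6.03 and 5.91 after HS and at 2.28 and 1.96 after HS+REC, and ATF3 is the gene whose bars after HS+REC, 2.41 and 2.76, exceed those after HS, 1.93 and 2.57, in both arms.

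The return to 37 °C separated the genes in time. FOS fell to 17.7, 20.2 and 21.2 CPM in scramble cells and to 26.2, 20.01 and 15.6 CPM in siLonp1 cells, 13.5 and 15.4 times lower than after HS (log2 -3.75, SE 0.12, adjusted p = 1.5e-16, and log2 -3.95, SE 0.12, adjusted p = 5.7e-17). JUNB fell to 16.7, 16.7 and 19.3 CPM and to 32.2, 24.3 and 27.6 CPM (log2 -1.43, SE 0.09, adjusted p = 2.7e-11, and log2 -1.26, SE 0.09, adjusted p = 7.1e-11). These were the 2 of 8 genes called in each arm, against 1.90% of all genes in scramble cells and 2.57% in siLonp1 cells. By FDR alone 7 of 8 genes passed in scramble cells and 6 of 8 in siLonp1 cells, against 26.8% and 31.9%. FOSB fell by 0.86 and by 0.67 on the log2 scale, FOSL1 by 0.54 and by 0.37, FOSL2 by 0.45 and by 0.34, and JUN by 0.41 and by 0.25 (adjusted p between 1.1e-06 and 0.021). The decrease of JUN in siLonp1 cells no longer passed without HS siLonp1 replicate 2 or either HS+REC siLonp1 replicate 2 or 3, with values between -0.36 and -0.18.

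ATF3 did not follow this decline. It had 26.5, 30.4 and 32.9 CPM after HS+REC in scramble cells, each above the HS libraries (log2 0.47, SE 0.16, adjusted p = 0.0258), a change that did not pass in 4 of 6 fits that left out a library (values between 0.40 and 0.55; HS scramble replicates 1 and 2 and HS+REC scramble replicates 2 and 3) nor with DESeq2 (adjusted p = 0.0823). In siLonp1 cells it had 39.1, 37.0 and 20.04 CPM, and the low replicate 3 overlapped the HS group (log2 0.19, SE 0.15, adjusted p = 0.391). Without that library the change was 0.43 on the log2 scale, with an adjusted p of 0.00255. The JUND libraries were widely spread, with 37.7, 44.2 and 69.8 CPM in scramble cells and 92.3, 80.6 and 63.9 CPM in siLonp1 cells. Its decrease against HS in scramble cells was 0.32 (adjusted p = 0.146) and became 0.63 (adjusted p = 7.9e-04) without HS+REC scramble replicate 3, and it also passed with no filter on low counts (adjusted p = 0.00374).

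Relative to Ctrl, with which the HS comparison shares its unheated libraries, FOS, FOSB and ATF3 were still called after HS+REC in both arms, 3 of 8 genes against 4.46% of all genes in scramble cells and 5.71% in siLonp1 cells. FOS was 4.85-fold and 3.89-fold above Ctrl, FOSB 2.75-fold and 2.57-fold, and ATF3 5.30-fold and 6.78-fold (adjusted p at most 3.1e-10). As a share of the mean CPM difference after HS, 5.97% and 4.88% of the FOS increase was left in scramble and siLonp1 cells, 44.01% and 50.96% of that of FOSB, 47.5% and 50.5% of that of JUN, and 44.7% and 21.2% of that of FOSL2. For ATF3 the difference from Ctrl was 152.0% and 116.6% of that after HS, where the change against HS passed the test in scramble cells and did not in siLonp1 cells. JUNB ended below its starting level, by 0.24 in scramble cells (SE 0.09, adjusted p = 0.0404, with overlapping libraries) and by 0.32 in siLonp1 cells (SE 0.09, adjusted p = 0.00372, without overlap). The decrease in scramble cells did not pass without either of Ctrl scramble replicates 1 and 2 or HS+REC scramble replicates 1 and 2, with values between -0.31 and -0.18, nor with CPM above 1 required in all libraries (adjusted p = 0.0663) or the groups of the contrast alone (adjusted p = 0.0503).

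FOSL1 ended lower as well. After HS+REC it had 176.2, 162.7 and 156.9 CPM in scramble cells and 407.6, 362.8 and 381.2 CPM in siLonp1 cells, which were 0.76 and 0.42 below Ctrl on the log2 scale (SE 0.07 for both, adjusted p = 1.3e-08 and 4.4e-05). FOSL2 remained above Ctrl in scramble cells, with 75.8, 61.6 and 60.1 CPM (log2 0.50, adjusted p = 7.4e-05), and overlapped Ctrl in siLonp1 cells, with 81.0, 84.7 and 81.6 CPM (log2 0.11, SE 0.09, adjusted p = 0.327). JUN, at 119.5, 120.3 and 139.3 CPM and at 235.1, 206.2 and 186.2 CPM, was above Ctrl in both arms (log2 0.51 and 0.32, adjusted p = 2.9e-05 and 0.00287). By FDR alone 7 of 8 genes passed against Ctrl in scramble cells and 6 of 8 in siLonp1 cells, against 42.3% and 51.2% of all genes.

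Silencing of Lonp1 went with higher levels of most of these genes at 37 °C, before any heat. FOSB (log2 1.15, SE 0.12, adjusted p = 2.7e-08), JUN (log2 0.92, SE 0.08, adjusted p = 6.9e-09), FOSL1 (log2 0.87, SE 0.07, adjusted p = 1.8e-09), JUNB (log2 0.76, SE 0.09, adjusted p = 2.7e-07) and FOSL2 (log2 0.72, SE 0.09, adjusted p = 7.4e-07) were each higher in all siLonp1 libraries than in any scramble library. With FOS and JUND, 7 of 8 genes showed no overlap and stood higher with siLonp1, as did 33.6% of all genes. FOSL1 libraries, for example, had 502.7, 566.7 and 469.0 CPM with siLonp1 against 269.7 to 297.2 CPM with scramble. Together with FOS, 6 of 8 genes passed by FDR, all of them higher, where 49.2% of all genes passed and 26.3% were higher. FOSB was the single gene called at 2-fold, against 4.17% of all genes. The increase of FOS was small (log2 0.39, SE 0.15, adjusted p = 0.0391) and did not pass in 5 of 6 fits that left out a library, the exception being Ctrl siLonp1 replicate 2, with values between 0.31 and 0.43, nor with scaling by totals alone (adjusted p = 0.0833) or with the trend in GC content removed (adjusted p = 0.05, just above the limit). JUND had 63.7, 63.6 and 80.1 CPM with siLonp1 (log2 0.33, SE 0.16, adjusted p = 0.0886), a change that passed with no filter on low counts (adjusted p = 8.9e-04), with the groups of the contrast fitted alone (adjusted p = 2.5e-04) and with the trend in GC content removed (adjusted p = 0.0339). ATF3 overlapped between the arms (log2 -0.26, SE 0.20, adjusted p = 0.301), and its decrease passed with the groups of the contrast fitted alone (log2 -0.27, adjusted p = 0.0456).

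**Figure D4:**
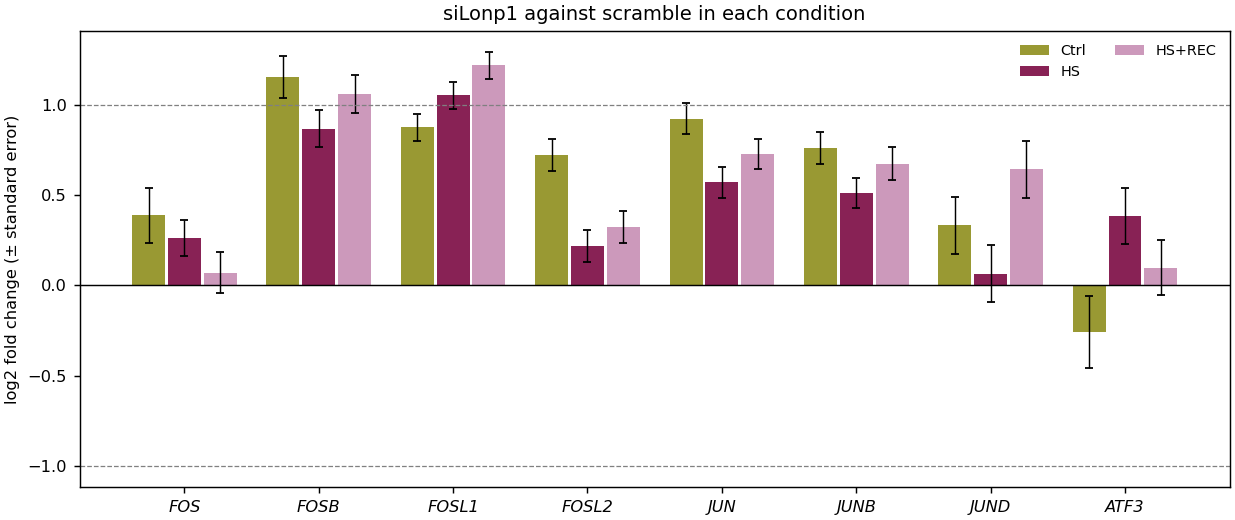
Bars give the log2 fold change of siLonp1 against scramble (vertical axis) for each gene (horizontal axis) in Ctrl, HS and HS+REC, with the standard error of the fit as error bars and dashed lines at a 2-fold change. FOSL1 stands at 0.87, 1.05 and 1.22, FOSB between 0.87 and 1.15, and FOS and ATF3 lie near 0 after HS+REC at 0.07 and 0.10.

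The siLonp1 differences after HS and HS+REC rest on other libraries than that in Ctrl, and FOSL1 had the largest of the 8 at both. After HS its levels were 482.3, 515.0 and 492.2 CPM with siLonp1 (2.07-fold, log2 1.05, SE 0.07, adjusted p = 8.5e-11), and after HS+REC the change was 2.32-fold (log2 1.22, SE 0.07, adjusted p = 7.1e-12). FOSL1 was the gene called after HS, 1 of 8 against 4.17% of all genes, and its log2 change was 0.97, under the 2-fold limit, without HS scramble replicate 3, and 0.95 when libraries were scaled by their totals alone. FOSL1 and FOSB were called after HS+REC, 2 of 8 against 4.18% of all genes. FOSB was 2.08-fold higher there (log2 1.06, SE 0.10, adjusted p = 1.9e-08), with 29.7, 29.2 and 30.5 CPM in scramble and 70.3, 64.9 and 50.6 CPM in siLonp1 libraries, and its log2 change fell under the limit without HS+REC siLonp1 replicate 1 (0.95) and with scaling by totals (0.98). JUN was higher by 0.57 after HS and by 0.73 after HS+REC, and JUNB by 0.51 and by 0.67 (adjusted p at most 2.4e-05), with no overlap between the arms for either gene.

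The other genes differed less between the arms under heat. FOSL2 was higher by 0.32 after HS+REC (SE 0.09, adjusted p = 0.00377) and by 0.22 after HS, where libraries overlapped (adjusted p = 0.041) and the change did not pass once replicate 3 of HS scramble or either replicate 2 or 3 of HS siLonp1 was left out (values between 0.12 and 0.30) or with the groups of the contrast alone (adjusted p = 0.0635). FOS was higher by 0.26 after HS (SE 0.10, adjusted p = 0.0296), which did not pass without HS scramble replicates 1 or 3 or HS siLonp1 replicates 2 or 3 (values between 0.24 and 0.30), and its libraries overlapped after HS+REC (log2 0.07, SE 0.11, adjusted p = 0.629). ATF3 was higher by 0.38 after HS (SE 0.16, adjusted p = 0.0424), a change that passed in 1 of 6 fits that left out a library, that without HS scramble replicate 3 (values between 0.32 and 0.45). It did not pass with DESeq2 (adjusted p = 0.114), with CPM above 1 required in all libraries (adjusted p = 0.0509) or with a replicate block (adjusted p = 0.0515). After HS+REC ATF3 overlapped between the arms (log2 0.10, SE 0.15, adjusted p = 0.613), and without HS+REC siLonp1 replicate 3 the changes of ATF3 (0.34, adjusted p = 0.00821) and FOS (0.23, adjusted p = 0.0458) passed. JUND was higher by 0.64 after HS+REC (SE 0.16, adjusted p = 0.00166) although its libraries overlapped, and differed by 0.06 after HS (SE 0.16, adjusted p = 0.75). By FDR alone 7 of 8 genes passed after HS and 6 of 8 after HS+REC, all higher, where 54.8% and 54.1% of all genes passed and 28.1% and 26.8% were higher. With scaling by totals alone FOS (adjusted p = 0.149), FOSL2 (adjusted p = 0.269) and ATF3 (adjusted p = 0.12) did not pass after HS.

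Whether siLonp1 altered the response to heat was tested as an interaction. FOSL2 alone passed for HS, with a log2 response smaller by 0.50 in siLonp1 cells (SE 0.13, adjusted p = 0.0383), 1 of 8 genes against 1.87% of all genes by FDR, and no gene of the 8 was called at 2-fold, against 0.140%, while FOSL2, JUN and ATF3 had an unadjusted p under 0.05. In 9 of 12 fits that left out a library the FOSL2 interaction did not pass, the exceptions being Ctrl siLonp1 replicate 3, HS scramble replicate 3 and HS siLonp1 replicate 2, with values between -0.60 and -0.42. JUN (log2 -0.35, SE 0.12, adjusted p = 0.133) and ATF3 (log2 0.64, SE 0.25, adjusted p = 0.219) did not pass, but did when no filter on low counts was used (adjusted p = 0.0355 and 0.00817) and when the 4 groups concerned were fitted alone (adjusted p = 0.0318 and 0.0166). The responses of FOS differed by -0.12 (SE 0.18, adjusted p = 0.813) and those of FOSB by -0.28 (SE 0.15, adjusted p = 0.392). For HS+REC none of the 8 passed by edgeR's test, against 1.58% of all genes, while 2 had an unadjusted p under 0.05, FOSL1 (log2 0.34, SE 0.10, adjusted p = 0.108) and FOSL2 (log2 -0.40, SE 0.13, adjusted p = 0.126). FOSL1 passed with DESeq2 (adjusted p = 0.0473) and with the trend in GC content removed (adjusted p = 0.0224), FOSL2 with no filter on low counts (log2 -0.42, adjusted p = 0.0149), and ATF3 without HS+REC siLonp1 replicate 3 (log2 0.60, adjusted p = 0.0496).

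Other genes of the pathway were examined in 5 lists. Kinases of the MAP kinase cascade, which phosphorylate Jun and Fos proteins and the factors that drive their transcription, were not called at 2-fold after HS or HS+REC in either arm. Of 19 tested, 3 were higher and 2 lower by FDR after HS in scramble cells, where 36.0% of all genes passed, and 4 and 7 in siLonp1 cells, where 42.2% passed. With siLonp1 10 kinases were higher and 1 lower in Ctrl, 9 and 4 after HS, and 10 and 2 after HS+REC, where 26.3%, 28.1% and 26.8% of all genes were higher, with list medians of 0.19, 0.13 and 0.15 on the log2 scale against 0.01, 0.00 and -0.00 over all genes. MAPK3, which encodes ERK1, was the kinase called, at 48.0, 51.7 and 53.5 CPM with siLonp1 against 25.1, 25.2 and 24.7 CPM with scramble after HS (log2 1.03, SE 0.07, adjusted p = 4.9e-11) and at a log2 change of 1.06 after HS+REC. In Ctrl its change was 0.88. At 2-fold 4.17% of all genes were called after HS and 4.18% after HS+REC, a share near that of 1 kinase in 19. The lists of promoter-binding factors, turnover genes and bZIP relatives were more mixed with siLonp1. By FDR in Ctrl they had 7 higher and 4 lower of 14, 4 and 2 of 12, and 3 and 2 of 11. After HS they had 4 and 2, 2 and 4, and 3 and 2.

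Of 14 factors that bind the promoters of AP-1 genes, EGR1 and DDIT3 were called after HS in both arms, 2 of 14 against 3.30% of all genes in scramble cells and 4.57% in siLonp1 cells. EGR1, an immediate early zinc finger factor, went from 52.4, 45.5 and 47.4 CPM to 1462, 1533 and 1232 CPM in scramble cells and fell to 139.4, 133.9 and 141.1 CPM after HS+REC, the same order as FOS. Its log2 change after HS was 4.86 in scramble and 4.26 in siLonp1 cells, with an interaction of -0.60 (SE 0.15, adjusted p = 0.0379). With siLonp1 EGR1 was higher by 0.54 in Ctrl (adjusted p = 2.7e-04) and differed by -0.06 after HS (adjusted p = 0.635). ATF4, which encodes the main factor of the integrated stress response, had an interaction of the opposite sign, 0.48 (adjusted p = 9.1e-04). The log2 change of ATF4 after HS was 0.12 (adjusted p = 0.086) in scramble and 0.59 (adjusted p = 2.1e-09) in siLonp1 cells. The interactions of EGR1 and ATF4 were the 2 of 14 that passed, against 1.87% of all genes. DDIT3, which encodes the stress factor CHOP, rose from 8.56, 9.72 and 9.83 CPM to 19.09, 18.03 and 19.98 CPM after HS and to 28.63, 27.97 and 31.04 CPM after HS+REC, and so was higher still after the return to 37 °C (log2 0.62 against HS, SE 0.09, adjusted p = 2.2e-05). The whole list had 3 genes higher and 2 lower by FDR after HS in scramble cells, a share near the 36.0% of all genes, and 4 and 4 in siLonp1 cells, where 42.2% of all genes passed.

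Among 12 genes for the decay of AU-rich mRNAs and the turnover of AP-1 proteins, ZFP36 was the gene called, 1 of 12 after HS in each arm against 3.30% and 4.57% of all genes. It encodes tristetraprolin, which binds AU-rich elements such as that shown for FOS. It had 11.28, 11.57 and 10.96 CPM in Ctrl scramble, 36.8, 38.6 and 32.3 CPM after HS and 9.32, 9.21 and 8.68 CPM after HS+REC, a rise of 1.67 and a fall of 1.99 on the log2 scale. Its HS response was smaller by 0.48 in siLonp1 cells (SE 0.11, adjusted p = 0.0196). With siLonp1 ZFP36 was higher by 0.34 in Ctrl (adjusted p = 0.00117) and differed by -0.14 after HS (adjusted p = 0.105). The interaction of its relative ZFP36L2 was -0.42 (adjusted p = 0.049), so 2 of 12 passed against 1.87% of all genes. After HS in scramble cells 6 genes of the list were higher and 1 lower by FDR, where 36.0% of all genes passed and 18.6% were higher. In siLonp1 cells 5 were higher and 3 lower, where 42.2% of all genes passed and 20.2% were higher.

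Of 13 bZIP relatives of AP-1, 11 were tested, and BATF3 and MAF were below the filter. After HS 7 of the 11 were higher in each arm by FDR and none lower, where all genes were higher in 18.6% and 20.2%, with list medians of 0.38 and 0.41. MAFF and MAFA, members of the Maf family, were among the genes called in both arms, 3 of 11 against 3.30% and 4.57% of all genes. MAFA had 0.0730, 0.0421 and 0.168 CPM in Ctrl scramble and 0.699, 0.663 and 0.506 CPM after HS, and so started from a few counts. JDP2, a repressor that pairs with JUN, had 11.60, 10.33 and 10.47 CPM in Ctrl scramble, 12.7, 14.1 and 12.3 CPM after HS (log2 0.27, adjusted p = 0.0103) and 21.9, 20.3 and 21.3 CPM after HS+REC in scramble cells and 31.04, 28.12 and 29.53 CPM after HS+REC in siLonp1 cells. The JDP2 response to HS+REC was larger in siLonp1 cells by 0.57 on the log2 scale (SE 0.11, adjusted p = 0.00755), 1 of 11 against 1.58% of all genes. CREB5 was called lower after HS+REC in both arms, by 1.17 and by 1.11, where 0.678% and 1.20% of all genes were called lower.

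Of 25 genes known as AP-1 targets, 17 were tested, and the 8 below the filter included the collagenase and stromelysin genes MMP1, MMP3, MMP10 and MMP13. With siLonp1 14 of 17 were higher and 2 lower by FDR in Ctrl, 15 and 2 after HS, and 15 and 2 after HS+REC, where all genes were higher in 26.3%, 28.1% and 26.8%. The list medians were 0.95, 0.94 and 0.86 on the log2 scale. At 2-fold 8, 7 and 8 targets were called higher, against 2.63%, 2.56% and 2.84% of all genes, and 1, the matrilysin gene MMP7, was called lower in each condition by 1.60, by 1.67 and by 1.26, where 1.54%, 1.61% and 1.33% of all genes were called lower. KRT17, a keratin of activated epithelium, had 1.92, 1.91 and 1.78 CPM in Ctrl scramble and 7.76, 7.22 and 7.36 CPM in Ctrl siLonp1 (log2 1.99, SE 0.11, adjusted p = 2.0e-12). CXCL8, the neutrophil chemokine interleukin-8, had 13.7, 13.7 and 12.7 CPM and 36.8, 43.4 and 45.1 CPM (log2 1.64, SE 0.11, adjusted p = 7.7e-11). AREG, an EGF receptor ligand, was higher by 1.08 in Ctrl and by 1.51 after HS+REC, and IL11, a cytokine gene with 0.243, 0.295 and 0.360 CPM in Ctrl scramble, by 1.70 in Ctrl and by 1.82 after HS. PLAU, the urokinase gene, was higher by 1.49 in Ctrl. These targets have other regulators as well, and no binding of AP-1 was measured.

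Heat moved the same list less evenly. After HS 7 targets were higher and 3 lower by FDR in scramble cells and 8 and 4 in siLonp1 cells, where all genes were higher in 18.6% and 20.2%. HMOX1, the heme oxygenase gene (log2 1.26), and HBEGF, another EGF receptor ligand (log2 1.22), were called in scramble cells, and CXCL8 (log2 1.29), HBEGF (log2 1.02) and VEGFA (log2 1.10) in siLonp1 cells, 2 and 3 of 17 against 3.30% and 4.57% of all genes. After HS+REC 6 targets were called higher in each arm, against 3.78% and 4.51% of all genes, with AREG at 1.43 and 1.86. PLAU was called lower in both arms, by 1.56 and by 1.39, and KRT17 in siLonp1 cells, by 1.02, against 0.678% and 1.20% of all genes.

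**Figure D5:**
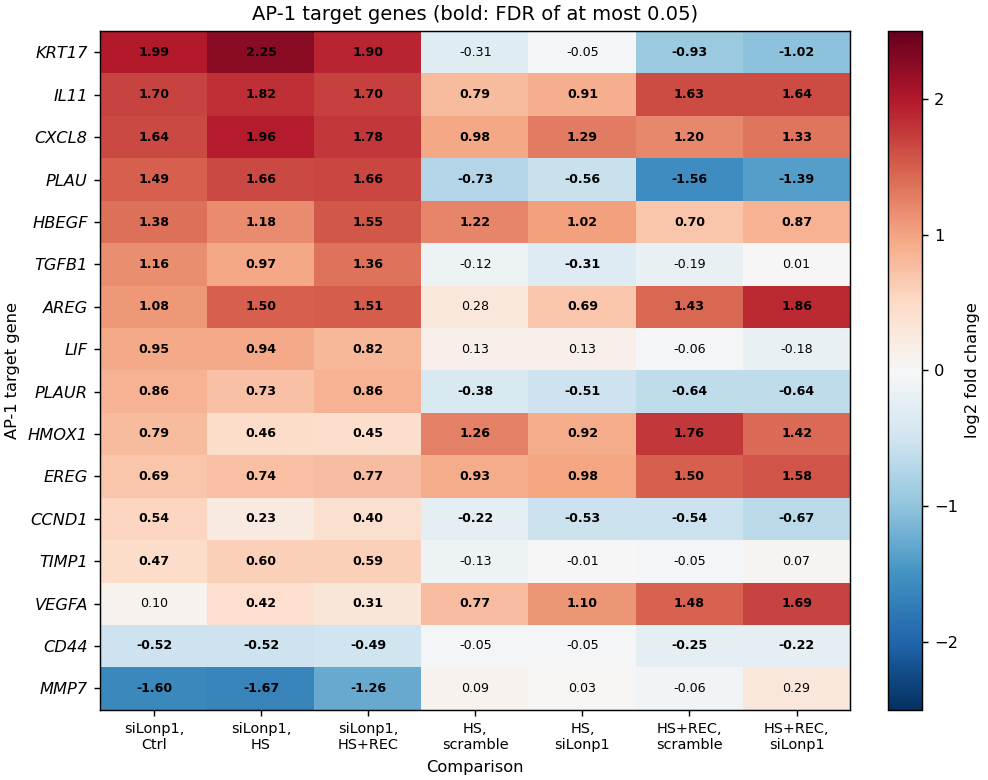
Colours and printed numbers give the log2 fold change of 16 of the tested AP-1 target genes (vertical axis) in 7 comparisons (horizontal axis), sorted by the siLonp1 effect in Ctrl, with values at an FDR of at most 0.05 in bold. The 3 columns for siLonp1 are positive for all but CD44 and MMP7, with KRT17 at 1.99, 2.25 and 1.90, while the columns for heat hold both signs.

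The genes whose log2 CPM was most like that of each of the 8 over the 18 libraries were found as a description, and the libraries share their groups. FOS was closest to EGR1 (Pearson's r = 0.995), GADD45B (0.986) and SIX4 (0.985), and FOSB to EDN1 (0.979), PELI1 (0.977) and MCL1 (0.977). FOSL1 was closest to POLR3E (0.989), TAGLN (0.987) and SRF (0.987), and FOSL2 to EFNB2 (0.961), DYRK1A (0.958) and NUAK2 (0.958). JUN was closest to CSRNP2 (0.974), HBEGF (0.969) and ARMC7 (0.968), and JUNB to ZSCAN9 (0.967), DUSP6 (0.966) and SLC25A25 (0.964). For JUND they were PRR7 (0.925), UBE2S (0.918) and HES4 (0.894), the lowest values of the 8, and for ATF3 CCDC121 (0.991), RGS2 (0.989) and ZFAND2A (0.987). With Spearman's rho, the 3 closest genes shared 2 with these for JUND and ATF3, 1 for FOSL2 and JUNB, and 0 for FOS, FOSB, FOSL1 and JUN.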

How the data were processed

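The deposited values are the authors' raw counts per gene symbol for 18 libraries of SW620 cells. Per the labels and the methods, the authors aligned paired-end reads of stranded mRNA libraries to hg38 with STAR 2.7.3a and counted them with featureCounts in R 3.6.3. The strand setting, the handling of multi-mapping reads, the annotation release and any removal of duplicates are not given in the sources used here.

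The tests used edgeR 4.0.16 under R 4.3.3 for the genes that exceeded 1 CPM in 3 or more libraries (TMM factors, quasi-likelihood test, 1 model with a mean per group, Benjamini-Hochberg over 12832 genes). The 11 contrasts were HS and HS+REC against Ctrl and HS+REC against HS in each arm, siLonp1 against scramble under Ctrl, HS and HS+REC, and whether the HS or HS+REC response differed between the arms (interaction). A call needed an FDR no higher than 0.05 and a fold change that exceeded 2, with FDR alone as the second rule. Standard errors are the log2 fold change divided by the root of the F statistic. Replicates differed by more than counting error (chi-square per degree of freedom 3.48 to 25.8), so each was kept. Levels per kilobase used the union of GENCODE 44 exons. No column belonged to another sample. Library totals are given with the results. The 8 genes and the 5 lists of other genes were chosen with earlier results of these data known. Genes from the lists are named by rule, as the up to 4 genes of a list with the largest change among those called in any of the 9 contrasts of 2 groups, and other genes of a list are named where a count was small or as examples, after their values were seen. The values of 2 genes of the lists are not reported here. Other settings tried were CPM above 1 in all libraries, RLE factors, no filter on low counts, scaling by totals alone, DESeq2 1.42.0, the contrast's groups alone, the replicate number as a block, other FDR and fold limits, a prior count of 2, each library left out, and, added after seeing the data, removal of the trend with GC content (known for 92.8% of the genes tested). The fit was tested on simulated counts.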

Additional observations from a re-analysis of the deposited data

Results flagged for a closer look

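The interaction of siLonp1 with HS for FOSL2, -0.50 on the log2 scale, was singled out because the response to the same heat differed between the arms by the test of that difference. FOSL2 went from a mean of 46.4 to 89.9 CPM in scramble cells and from 76.5 to 104.6 CPM in siLonp1 cells.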

How the results depend on the processing

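Counts of called genes are the main results here, and RLE size factors, no filter, the stricter filter, DESeq2, the contrast's groups alone, FDR 0.01, removal of the GC trend and a block for the replicate number left each of them within 1.5 times its value. Scaling by totals alone gave 0 genes for siLonp1 after HS and 1 after HS+REC. Without a fold limit the counts were 7 and 6 for HS in scramble and siLonp1 cells, 7 and 6 for HS+REC against Ctrl, 7 and 6 for HS+REC against HS, 6, 7 and 6 for siLonp1 in Ctrl, HS and HS+REC, and 1 for the interaction with HS. A limit of 1.5-fold gave 5, 2 and 5 for siLonp1 in Ctrl, HS and HS+REC. Leaving out 1 library gave 0 to 1 for siLonp1 after HS and 1 to 2 after HS+REC.

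Some changes of single genes that did not pass the test changed sign. Scaling by totals alone gave -0.0331 for JUND (siLonp1, HS) and -0.0042 for FOS (siLonp1, HS+REC), and removal of the GC trend gave 0.0152 for FOSL1 (HS, siLonp1 cells). As libraries were left out, values ran from -0.11 to 0.0315 for FOSL1 and from -0.12 to 0.0567 for JUND (HS, siLonp1 cells), from -0.43 to 0.0553 for JUND (HS+REC against Ctrl, scramble cells), from -0.0111 to 0.16 for JUND (siLonp1, HS), from -0.15 to 0.23 for FOS and from -0.0786 to 0.34 for ATF3 (siLonp1, HS+REC), and from -0.21 to 0.0318 for FOSB and from -0.20 to 0.0087 for JUNB (interaction with HS+REC). The cause was not tested.

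No pairing of the libraries by replicate number was seen. Same-numbered libraries of different groups deviated together in 10 of 45 pairs (r above 0.1, median -0.022). Libraries with other numbers did so in 25 of 90 pairs (median 0.022), and 6 of 18 libraries correlated best with their own number. With 3 libraries a group, this description cannot exclude a pairing. With the block, ATF3 with siLonp1 after HS no longer passed (0.38, adjusted p = 0.0515 by edgeR), and no other gene's call changed. With 3 libraries a group, differences near the threshold depended on single libraries. Removal of PCR duplicates is not given in the sources used here, so counting error may be understated.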

Other observations

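Single libraries stood apart within the HS+REC groups for several genes. HS+REC siLonp1 replicate 3 was the lowest of its group for FOS (15.6 CPM against 20.01 and 26.2), FOSB (50.6 against 64.9 and 70.3), JUN (186.2 against 206.2 and 235.1), JUND (63.9 against 80.6 and 92.3) and ATF3 (20.04 against 37.0 and 39.1), and not for JUNB (27.6 against 24.3 and 32.2), FOSL1 (381.2 against 362.8 and 407.6) or FOSL2 (81.6 against 81.0 and 84.7). HS+REC scramble replicate 3 was the highest of its group for FOS, FOSB, JUN, JUNB, JUND and ATF3 and the lowest for FOSL1 and FOSL2, for example with 69.8 CPM of JUND against 37.7 and 44.2 and 139.3 CPM of JUN against 119.5 and 120.3. These values are given with no explanation.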
